A study of Homo sapiens with 6 samples.

Results

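The 167 genes described here are the long noncoding RNA genes named LINC that had at least 100 reads summed over 6 bulk RNA sequencing libraries. They were 7.9% of the 2115 rows whose symbol starts with LINC in a table of 60623 rows. Of the other LINC rows, 1173 had 0 reads and 775 had 1 to 99 reads. The total over all libraries chose the members without regard to group, so totals are given as a description, and a member read in one group had to be abundant there to enter. All libraries were labelled as PANC-1, an established cell line from a human pancreatic ductal carcinoma. The titles name 3 biological replicates carrying a short hairpin against STN1, a subunit of the CST complex that protects and replicates telomere ends, and 3 carrying a control hairpin, whose genotype is given as WT. No treatment, time or clone is labelled, and the genotype field of 2 of the hairpin libraries reads STN2 and STN3 knockdown, so groups follow the titles. Libraries held 17357223 to 23336942 counted reads.

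LINC is the symbol given to long intergenic noncoding RNA genes that have no better described function or neighbour to be named after. Such transcripts are usually spliced and polyadenylated, are present at lower levels than messenger RNAs, and are often restricted to few cell types. Some act on the gene next to them, others act in trans as scaffolds or as hosts of small or circular RNAs, and for most no role is known. Of the members, 155 carried a noncoding RNA class in GENCODE 29 (121 lincRNA, 20 processed transcript, 12 antisense, 2 bidirectional promoter), 11 a transcribed pseudogene class, and 1, LINC02693, the class protein coding. Gene bodies of 98 members overlapped another gene, and 16 shared over 20% of their exon bases with another gene's exons. Reads of those 16 may be split or lost, since the strand setting of the counting is not given in the sources used here.

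The labels were checked first. STN1 had 387, 346 and 278 reads in control and 303, 306 and 275 in the shSTN1-labelled libraries, so the groups overlapped (log2 fold change -0.15, SE 0.105, edgeR adjusted p = 0.253, two-sided exact permutation p = 0.3, where the smallest possible is 0.1). Summed levels of 9 ductal carcinoma markers were 1410 to 1530 CPM (reads scaled to a common library size) in control and 8170 to 8309 in the shSTN1-labelled libraries, and all 9 were called higher. Summed levels of 7 genes chosen as markers of an embryonic kidney line were 698 to 748 CPM in control and 73.0 to 74.0 CPM in the shSTN1-labelled libraries, with 6 of the 7 called lower, PAX2 called higher, and HMX1, CDKN2A and SALL1 at 0 reads in the latter. IRS4 was the largest part of the control sum (330 CPM, 20505 reads against 3). PAX2, which went from 24.2 to 62.4 CPM, was the largest part of the shSTN1-labelled sum. CDKN2A, which PANC-1 is known to have lost, had 11753 reads over the control libraries and 0 over the others. The control libraries therefore go against their label at CDKN2A, all 3 of them, and no comparison can be made without them. Summed fibroblast markers were at 63.7 to 77.6 CPM in control and 145 to 161 in the shSTN1-labelled libraries, where COL1A1 and COL3A1 were called higher while LUM went from 30 to 2 reads and DCN from 6 to 0. Summed endocrine markers were at 46.5 to 51.4 and 23.5 to 29.4, with INS and GCG at 0 in both groups. Of the others, INSM1 went from 810 reads to 0, CHGA from 42 to 17 reads, and SYP from 34.7 to 25.5 CPM. Leukocyte markers were at 3.25 to 4.25 and 0.458 to 0.511 CPM, and endothelial and acinar markers under 1 CPM in every library. In bulk samples, fewer cells of a type and less RNA per cell cannot be told apart. The part of these differences in the results below was not tested, so directions hold for the libraries as they are labelled.

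Promoters of 5 members that the results turn on are shown first, from RefSeq (GRCh38.p14), each covering 250 bases before to 50 bases after the RefSeq start, 5′ to 3′ on the gene's strand. The first pair belongs to genes with at most 1 read in the shSTN1-labelled libraries, the third to a gene read mostly in control, and the last pair to genes raised in the shSTN1-labelled libraries. Capitals mark any match, on either strand, to TGANTCA (the core bound by AP-1), GGGCGG (bound by SP and KLF factors) or the core of the box bound by TBP, TATAAA.
LINC00632 (chrX:140709509-140709808, plus strand): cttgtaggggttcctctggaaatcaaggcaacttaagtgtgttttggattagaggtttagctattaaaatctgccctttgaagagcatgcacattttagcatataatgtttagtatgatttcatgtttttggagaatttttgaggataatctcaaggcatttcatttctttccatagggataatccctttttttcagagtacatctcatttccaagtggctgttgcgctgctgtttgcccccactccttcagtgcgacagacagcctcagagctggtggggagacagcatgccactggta
LINC01411 (chr5:174336104-174336403, plus strand): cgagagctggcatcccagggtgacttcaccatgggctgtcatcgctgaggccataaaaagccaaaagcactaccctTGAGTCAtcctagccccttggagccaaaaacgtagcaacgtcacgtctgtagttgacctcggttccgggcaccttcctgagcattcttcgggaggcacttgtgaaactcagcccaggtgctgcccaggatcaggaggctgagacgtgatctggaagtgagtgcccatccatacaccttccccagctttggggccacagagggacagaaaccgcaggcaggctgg
LINC01234 (chr12:113773634-113773933, minus strand): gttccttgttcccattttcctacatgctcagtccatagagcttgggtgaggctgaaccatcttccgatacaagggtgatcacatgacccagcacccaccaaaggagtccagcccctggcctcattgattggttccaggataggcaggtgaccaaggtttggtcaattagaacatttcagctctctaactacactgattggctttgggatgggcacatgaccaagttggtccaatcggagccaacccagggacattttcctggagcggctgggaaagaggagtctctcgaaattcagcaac
LINC00261 (chr20:22578593-22578892, minus strand): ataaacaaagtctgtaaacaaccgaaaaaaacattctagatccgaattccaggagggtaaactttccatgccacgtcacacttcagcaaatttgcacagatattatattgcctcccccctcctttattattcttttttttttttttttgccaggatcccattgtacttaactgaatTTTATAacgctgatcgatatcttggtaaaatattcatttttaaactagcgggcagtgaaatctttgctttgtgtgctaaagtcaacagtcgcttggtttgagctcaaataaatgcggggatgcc
LINC00511 (chr17:72640423-72640722, minus strand): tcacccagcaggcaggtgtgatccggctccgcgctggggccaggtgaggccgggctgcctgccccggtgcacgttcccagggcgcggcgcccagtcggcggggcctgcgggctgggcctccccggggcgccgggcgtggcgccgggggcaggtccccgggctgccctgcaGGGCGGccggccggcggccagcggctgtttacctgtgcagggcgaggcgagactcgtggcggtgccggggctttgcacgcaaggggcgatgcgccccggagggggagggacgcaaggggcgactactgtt
The LINC01411 window held 1 TGANTCA match, the LINC00261 window 1 TATAAA match and the LINC00511 window 1 GGGCGG match, whereas the LINC00632 and LINC01234 windows held none of the 3 motifs. Base composition ranged widely among them, from 37.0% GC and 8 CpG in the LINC00261 window to 78.0% GC and 35 CpG in the LINC00511 window, with 42.0% GC and 2 CpG for LINC00632.

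RefSeq promoters were matched by symbol for 108 of the 167 members. GGGCGG was present in 59 of them (54.6%, against 45.0% of all 35116 promoters), TATAAA in 13 (11.5% of all promoters) and TGANTCA in 10 (9.3% against 7.7%). Among the members called lower by at least 2-fold, 17 of 24 matched promoters held GGGCGG (70.8%), and among those called higher by at least 2-fold 18 of 35 did (51.4%). The median CpG count was 17.5 in the former, 14.0 in the latter and 18 in the 49 matched members that were called at under 2-fold or not called, against 15.5 over all matched members and 14.0 over all promoters. GGGCGG was present in 24 of those 49 promoters (49.0%). A match describes letters in the window, and nothing about binding was measured. Only 2 of the 11 genes read almost solely in control had an entry, LINC00632 and LINC01411, so no pattern can be described for that set.

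A set of 11 LINC-named genes was read almost solely in the control libraries, and 0 were read almost solely in the shSTN1-labelled libraries. The rule was at most 3 reads summed over the 3 libraries of one group. By this rule 6.59% of the members were restricted to control, against 1.53% of the 15712 rows of the table with a total of at least 100 and 2.71% of 1364 such noncoding RNA genes with other names. All 11 had totals of 126 to 484 reads, and among rows with totals under 500 reads, 11 of 108 members (10.2%) and 4.69% of 3582 rows were restricted to control. Among the 69 members whose gene body overlaps no other gene, 3 were restricted to control, a lower share than over all members. In the other direction the background was 0.00636%, a single gene, the interleukin 33 receptor gene IL1RL1 with 1 against 176 reads. These sets were chosen on the difference itself, so no test is given for them.

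**Figure D1:**
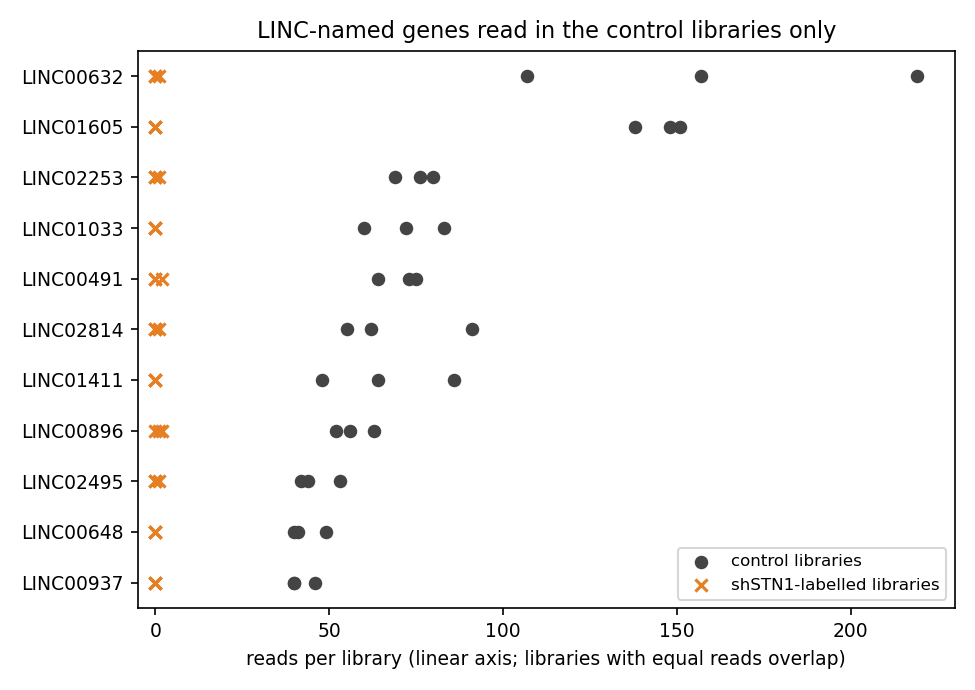
Reads per library (x axis, linear) for the 11 LINC-named genes with at most 3 reads over the shSTN1-labelled libraries (crosses) beside the control libraries (points). Control libraries held 40 to 219 reads of each gene and shSTN1-labelled libraries 0 to 2.

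LINC00632, which hosts the circular RNA CDR1as in the brain, had the highest total of the 11, with 157, 219 and 107 reads in control and 0, 1 and 0 in the shSTN1-labelled libraries. The ratio of levels was 470 (95% exact interval 83.9 to 18598, counting error only). It lies on chromosome X at positions 140709562 to 140793215 (GRCh38), and the counts cannot tell its linear from its circular products. LINC01605, on chromosome 8, had 138, 151 and 148 control reads and 0 in every shSTN1-labelled library, at least 142-fold lower with a floor of 3 reads over the group. These were the members of the set with the highest control levels, 7.72 ± 2.01 and 7.14 ± 0.764 CPM (mean ± SD, n = 3 libraries). No control library of either gene came near any shSTN1-labelled library.

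Chromosome 5 held 3 genes of the set and 8 of all 167 members, a grouping made after the values were seen. Of its 770 genes tested, 37.7% were lower, against 38.5% of all genes tested. LINC01033 (positions 54320944 to 54415125) had 72, 83 and 60 control reads against 0, at least 69.7-fold lower. LINC00491 (102609156 to 102671559) had 73, 75 and 64 against 0, 2 and 0, a ratio of 103 (95% interval 28.2 to 857). LINC01411 (174336295 to 174532457) had 86, 64 and 48 against 0, at least 64.2-fold lower. These genes lie far apart on the chromosome, and each was separated between groups in every library. LINC02253 on chromosome 15 (69, 76 and 80 reads against 0, 0 and 1) and LINC02814 on chromosome 1 (62, 91 and 55 against 0, 0 and 1) had ratios of 219 and 202. LINC02495 on chromosome 4 (42, 53 and 44 against 0, 1 and 0), annotated as a transcribed pseudogene, had a ratio of 135. Among the 6 genes with any shSTN1-labelled read, the smallest ratio was that of LINC00896 on chromosome 22, 55.5 (95% interval 18.7 to 272). Its reads were 56, 63 and 52 against 0, 1 and 2. The other 5 genes have lower bounds only, so they cannot be ranked with the ratios. LINC00648 (40, 41 and 49 against 0) and LINC00937 (40, 46 and 40 against 0) were at least 42.2-fold and 40.9-fold lower. Over the set, 5 genes had 0 reads in the shSTN1-labelled libraries and 6 had 1 to 3.

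No member showed the reverse pattern. The fewest control reads of any member were the 2, 3 and 7 of LINC02206, which had 49, 44 and 30 reads in the shSTN1-labelled libraries. Next came LINC01186 with 2, 8 and 6 against 35, 35 and 22. All 49 members called higher by at least 2-fold had reads in every control library, with sums of 12 to 929. With a total of at least 50 reads as the entry rule, 1 LINC gene met the reverse rule, LINC01910 with 3 reads against 49.

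Across all members, more were called higher than lower in the shSTN1-labelled libraries. By edgeR's quasi-likelihood test with Benjamini-Hochberg adjustment over 17451 genes, 127 members passed an adjusted p of 0.05 (76.0%, against 74.1% of all genes tested), so the share called is near the background. Of these, 71 were higher (42.5% of the members, against 35.6% of all genes tested) and 56 lower (33.5% against 38.5%). All 167 members passed the filter on low counts. The remaining 40 were not called. The median log2 fold change was 0.18, also with the genes at 0 reads set to their bound, against -0.03 over all genes tested and 0.11 over other noncoding RNA genes with at least 100 reads, of which 33.7% were called higher and 27.8% lower. Restricted to the 69 members whose gene body overlaps no other gene, 27 were higher (39.1%) and 28 lower (40.6%), with a median of 0.03. At least 2-fold differences were called for 88 members (52.7% against 34.6%), of which 49 were higher (29.3% against 15.7%) and 39 lower (23.4% against 19%). These shares are set beside all genes tested. No share was counted for rows of similar totals, and 108 members (64.7%) had totals under 500 reads. Levels of the groups did not overlap for 132 members (79.0%), against 75.6% of all genes tested. The summed reads of the members were a similar share of every library, 0.0975% to 0.102% in control and 0.0953% to 0.0995% in the shSTN1-labelled libraries.

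**Figure D2:**
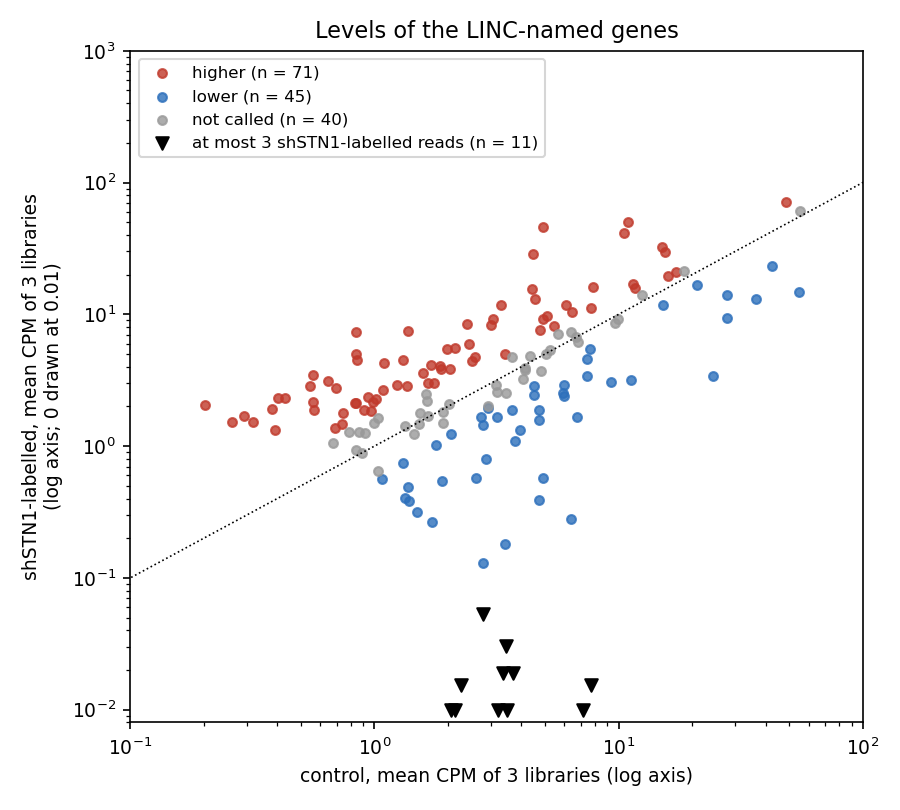
Mean CPM of each of the 167 LINC-named genes in control (x axis) and shSTN1-labelled libraries (y axis), both on log axes, coloured by the edgeR call, with the dotted line marking equal levels. The 11 genes with at most 3 shSTN1-labelled reads (triangles) sit at the bottom, and no gene sits at the left edge in the mirrored place.

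**Figure D3:**
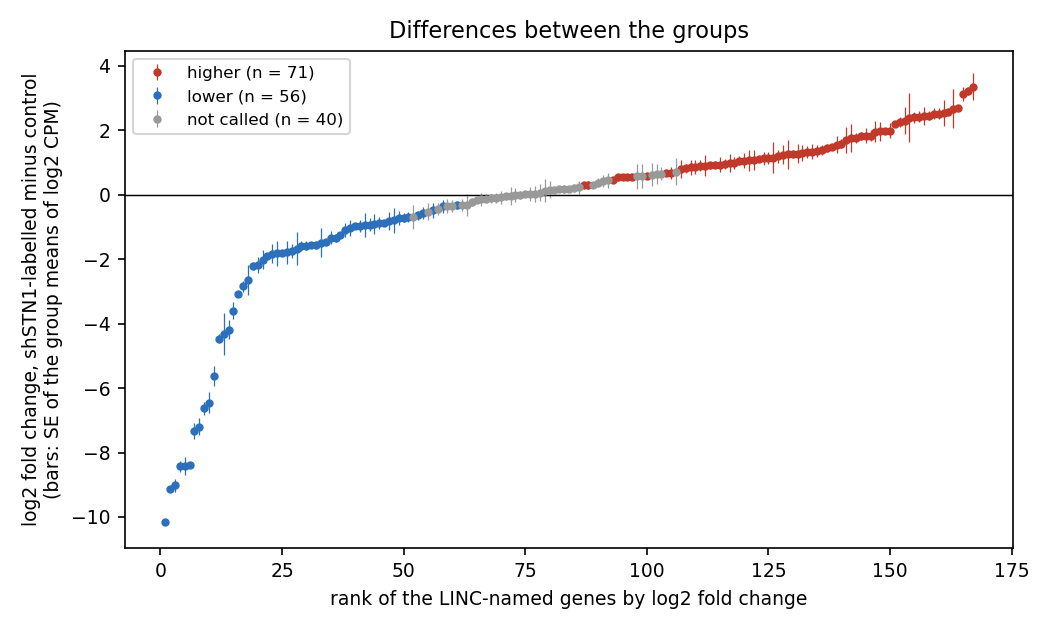
Log2 fold change (shSTN1-labelled minus control) of the 167 LINC-named genes in rank order, with bars for the SE of the difference of group means of log2 CPM. Values run from -10.17 to 3.34, and the lowest are fitted values of genes with 0 reads, which depend on the prior count. The bars were computed apart from that fit, with a prior count of 2, so short bars at 0 reads do not mean precise fold changes. For LINC01605 (-10.17) the bar is 0.0857, and the limma-voom 95% interval is -9.23 to -7.05.

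Among members read in both groups, the highest fold changes belonged to genes with few control reads, apart from LINC00261 and LINC00667. LINC00261, a noncoding gene beside FOXA2 that takes part in endoderm differentiation, had 98, 124 and 81 reads in control and 1027, 998 and 737 in the shSTN1-labelled libraries. Its level was 4.88 ± 0.598 against 45.9 ± 4.17 CPM, a log2 fold change of 3.22 (SE 0.124, edgeR adjusted p = 8.37e-22). In GENCODE 29, 86.1% of its exon bases are shared with another gene model, so its reads may be partly lost. LINC00667 on chromosome 18 rose from 84, 115 and 78 to 550, 633 and 532 reads (2.67, SE 0.116, edgeR adjusted p = 8.85e-19), with 25.3% of its exon bases shared. LINC00664, within a zinc finger gene cluster on chromosome 19, rose from 19, 14 and 18 to 139, 145 and 150 reads (3.12, SE 0.21, edgeR adjusted p = 1.08e-13). For each of these genes the lowest shSTN1-labelled library was several times above the highest control library.

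The remaining genes of this group started from under 1 CPM in control. LINC02206 had the highest value of all members, 3.34 (limma-voom 95% interval 2.38 to 4.45, edgeR adjusted p = 5.59e-08), at 0.203 ± 0.154 against 2.04 ± 0.346 CPM. Without control replicate 3 its log2 fold change was 4.06. LINC01348 (4, 9 and 20 reads against 61, 73 and 71) had 2.66, and 3.48 without control replicate 3, which held most of its control reads. LINC01239 on chromosome 9 (20, 19 and 13 against 105, 111 and 86) had 2.57, LINC01186 had 2.53, and LINC00514 (5, 7 and 6 against 41, 35 and 26) had 2.51. Their edgeR adjusted p lay between 4.68e-11 for LINC01239 and 6.32e-06 for LINC01186, and the groups did not overlap for any of them.

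The 8 lowest fold changes among members with more than 3 reads in both groups ran from -4.47 to -2.21. LINC01694 on chromosome 21 fell from 136, 148 and 112 to 7, 6 and 4 reads, or from 6.41 ± 0.3 to 0.281 ± 0.0577 CPM. Its log2 fold change was -4.47 (limma-voom 95% interval -5.22 to -3.59, edgeR adjusted p = 1.83e-15). LINC00960 had 58, 66 and 48 reads against 7, 1 and 0 (-4.32, limma-voom 95% interval -6.26 to -3.69, edgeR adjusted p = 1.33e-09). It was at -6.47 without shSTN1 replicate 1, which held nearly all of the reads of its group. LINC01234, described in several carcinomas, fell from 82, 77 and 54 to 2, 6 and 3 reads (-4.19, limma-voom 95% interval -5.15 to -3.15, edgeR adjusted p = 1.38e-11). All were close to, but above, the limit for genes read almost solely in control. LINC00649 (107, 120 and 67 reads against 9, 6 and 8) was at -3.6, LINC01315 (101, 105 and 96 against 13, 11 and 10) at -3.1, LINC02804 at -2.65 and LINC02846 at -2.21. LINC02381, on chromosome 12 at positions 54126098 to 54142493, was the abundant gene of this group. It fell from 483, 582 and 437 to 61, 66 and 75 reads, or from 24.3 ± 1.5 to 3.42 ± 0.725 CPM (a difference of -2.84, SE 0.171, edgeR adjusted p = 3.26e-18).

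Levels were compared between genes as CPM per kilobase of exon, with exon lengths from GENCODE 29. On this scale the median member stood at 0.924 in control and 1.06 in the shSTN1-labelled libraries, and the highest at 10.5 and 14.3. LINC02381 ranked 1 of 167 in control, with 10.1, 11.3 and 10.3 CPM per kilobase, and 66 in the shSTN1-labelled libraries, with 1.29, 1.31 and 1.84. LINC00261 went the other way, from rank 87 (0.849, 0.999 and 0.79) to rank 4 (9.03, 8.23 and 7.53). Of the 8 highest genes in each group 4 were shared, namely LINC00674, LINC01578, LINC00205 and LINC00839.

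**Figure D4:**
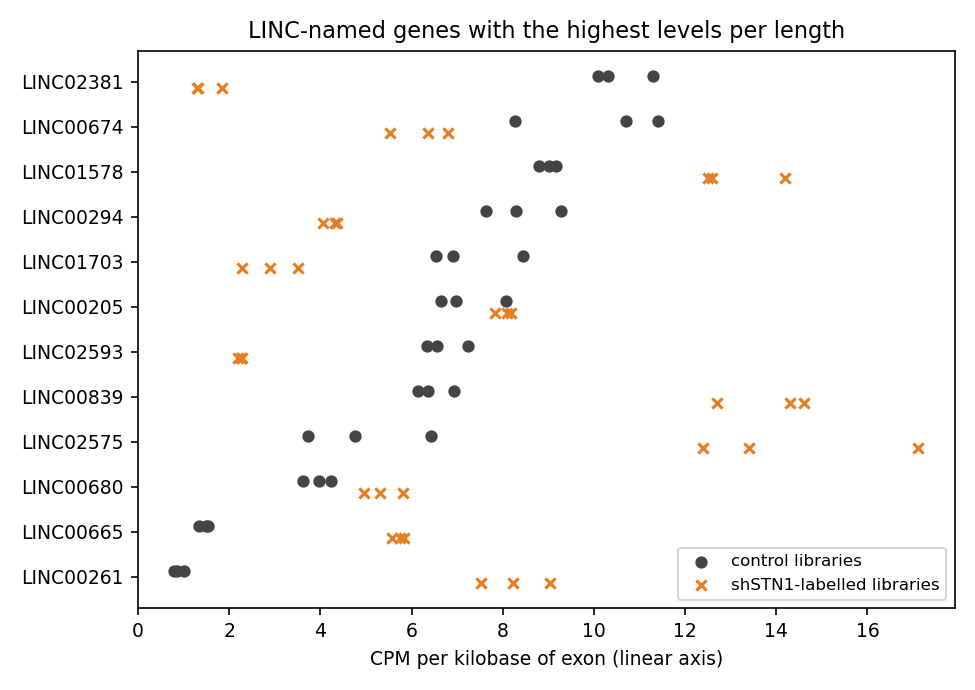
CPM per kilobase of exon in each library (x axis, linear) for the 12 LINC-named genes among the 8 highest of either group, ordered by control rank. LINC02381 lies at 10.1 to 11.3 in control and 1.29 to 1.84 in the shSTN1-labelled libraries, and LINC00205 overlaps between the groups.

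LINC01578, also known as CHASERR, lies upstream of the chromatin remodeller gene CHD2 and restrains it. It ranked 3 in both groups, at 9.0 ± 0.184 in control and 13.1 ± 0.984 CPM per kilobase in the shSTN1-labelled libraries (log2 fold change 0.54, edgeR adjusted p = 2.7e-07). LINC00839 rose from rank 8 (6.48 ± 0.406) to rank 2 (13.9 ± 1.01), with a log2 fold change of 1.1 (edgeR adjusted p = 2.15e-11). LINC02575 was the highest in the shSTN1-labelled libraries, at 17.1, 12.4 and 13.4 against 4.75, 3.73 and 6.42 in control (1.54, edgeR adjusted p = 9.54e-10). In both of these the groups did not overlap. LINC00665, inside a zinc finger gene cluster on chromosome 19, rose from 1.45 ± 0.109 to 5.72 ± 0.134 (1.98, edgeR adjusted p = 8.01e-18), and the pseudogene-derived LINC00680 from 3.94 ± 0.301 to 5.36 ± 0.439 (0.45, edgeR adjusted p = 0.00133).

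Abundant control genes that fell were LINC00294, from 8.4 ± 0.827 to 4.25 ± 0.162 CPM per kilobase (log2 fold change -0.98), LINC02593, from 6.71 ± 0.476 to 2.24 ± 0.0411 (-1.58), LINC01703, from 7.3 ± 1.01 to 2.9 ± 0.611 (-1.34), and LINC00674, from 10.1 ± 1.65 to 6.23 ± 0.651 (-0.7). Their edgeR adjusted p ranged from 2.54e-14 for LINC02593 to 4.47e-04 for LINC00674. Neighbours in these orders were often within their spread. In control, LINC02381 at 10.5 ± 0.651 and LINC00674 at 10.1 ± 1.65 overlapped, as did LINC01703 at 7.3 ± 1.01 and LINC00205 at 7.23 ± 0.745. In the shSTN1-labelled libraries LINC02575, LINC00839 and LINC01578 overlapped with each other.

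Some members did not differ beyond the spread between libraries. LINC00205, annotated with a bidirectional promoter 152 bases from the fucosyltransferase gene POFUT2, had 1052, 1374 and 981 reads in control and 1278, 1346 and 1051 in the shSTN1-labelled libraries, or 55.1 ± 5.68 against 61.2 ± 1.44 CPM. The difference was 0.15 on the log2 scale (edgeR adjusted p = 0.0939, limma-voom 95% interval -0.01 to 0.32). Without control replicate 2 it passed the threshold at 0.23 (edgeR adjusted p = 0.0136). Among members with at least 2 CPM in both groups, the smallest differences were those of LINC01145 (0.01, limma-voom 95% interval -0.3 to 0.32), LINC01355 (-0.01, -0.38 to 0.35) and LINC00910 (0.02, -0.4 to 0.37). LINC01786 (0.05), LINC01569 (-0.08) and LINC00265 (-0.1) followed. Their edgeR adjusted p were 0.533 or higher and the groups overlapped in each.

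Of 31 LINC genes listed because they have been described in pancreatic or other carcinomas, 26 were in the table under that name and 13 were members. Of these 13, 10 were higher, 2 lower and 1 not called, with a median log2 fold change of 0.91, where 35.6% and 38.5% of all genes tested were higher and lower. The members were listed with earlier results of these data known. LINC00511, described as promoting proliferation in several carcinomas, rose from 210, 257 and 207 to 1139, 1033 and 845 reads, or from 10.9 ± 0.736 to 50.3 ± 4.62 CPM (2.2, SE 0.0936, edgeR adjusted p = 5.02e-19). LINC00346 rose from 59, 60 and 68 to 187, 192 and 168 reads (1.58, edgeR adjusted p = 6.67e-10), and LINC00662 from 365, 330 and 261 to 612, 620 and 530 (0.93, edgeR adjusted p = 2.11e-09). In these genes every shSTN1-labelled library was above every control library. LINC-PINT, a p53-induced transcript linked to Polycomb repression, rose from 44, 39 and 39 to 99, 130 and 97 reads (1.45, edgeR adjusted p = 1.6e-07), with 29.6% of its exon bases shared with other genes. LINC00857 was at 0.94 (edgeR adjusted p = 2.51e-06). LINC00472 (0.91), LINC00339 (0.86), LINC01963 (0.59) and LINC00963 (0.29) were also called higher, LINC02381 and LINC01234 lower, and LINC00467 was at 0.18 (edgeR adjusted p = 0.272). Summed levels of the 9 ductal carcinoma markers moved in the same direction between these libraries, and their part in the list was not tested.

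Long noncoding RNA genes known under other names gave a mixed picture. From a list of 50, 48 were in the table and 43 were tested, of which 18 were higher, 15 lower and 10 not called, with a median of 0.1. H19, an imprinted fetal transcript, had 3035, 2943 and 2649 control reads and 13842, 13300 and 11242 in the shSTN1-labelled libraries (2.19, edgeR adjusted p = 4.16e-24), and MEG3, also imprinted, was at 2.28 (edgeR adjusted p = 2.53e-24). NEAT1, the scaffold of nuclear paraspeckles, was at 1.52, AFAP1-AS1 at 2.89 and MIR22HG, the host of a microRNA, at 2.6. FENDRR, a lateral mesoderm transcript, met the rule for genes read almost solely in control, with 169, 229 and 158 reads against 0. FIRRE, which helps organise nuclear architecture, had 225, 268 and 264 against 4, 2 and 0, which is above the limit of that rule. CDKN2B-AS1, antisense to the genes beside CDKN2A, had 75, 75 and 64 against 0, and is named after its values were seen. DANCR fell from 1216, 1054 and 1051 to 303, 290 and 246 reads (-1.95, edgeR adjusted p = 7.83e-18).

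Because some LINC RNAs act on adjacent genes, each member was set beside the nearest tested protein-coding gene within 100 kb. Such a neighbour existed for 139 members. Both genes were called for 71 pairs, of which 52 moved in the same direction and 19 in opposite directions (73.2% the same). Noncoding RNA genes with other names gave 498 of 628 pairs in the same direction (79.3%), so the share of the LINC-named genes was not above that of the others. Across the 139 pairs the fold changes correlated at Pearson r = 0.45 and Spearman rho = 0.335, as a description across genes that share libraries and, in part, overlapping reads.

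**Figure D5:**
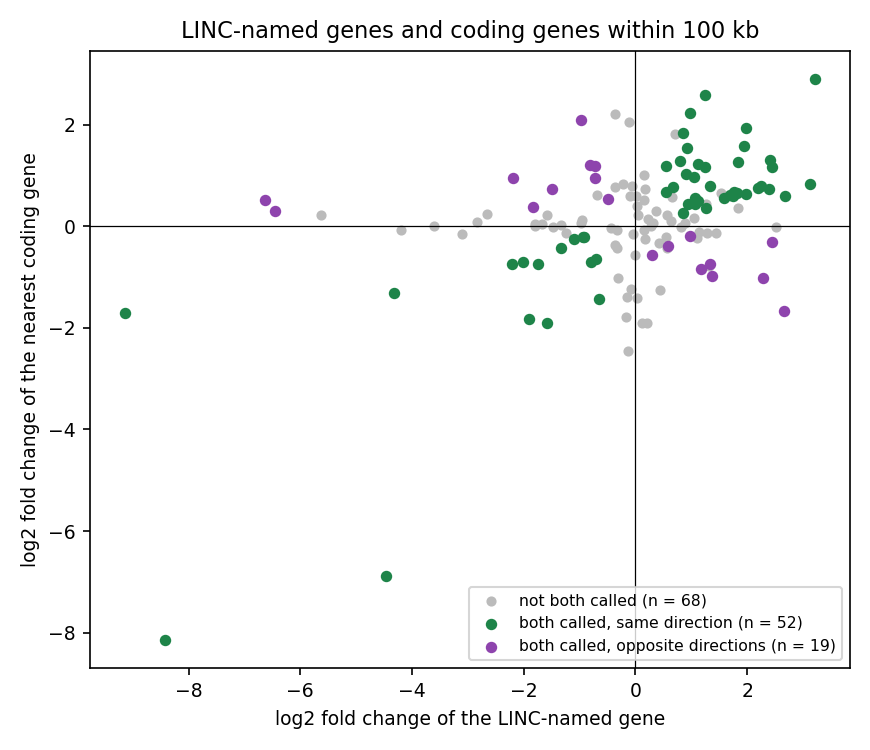
Log2 fold change of LINC-named genes (x axis) against that of the nearest tested coding gene within 100 kb (y axis), both as shSTN1-labelled minus control. Pairs with both genes called lie mostly at the lower left and upper right (52 pairs), and 19 lie at the upper left or lower right. Values under -5 are fitted for genes with 0 to 3 reads in one group and depend on the prior count.

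The clearest pair that rose was LINC00261 and FOXA2, a pioneer transcription factor of endoderm and pancreas, separated by 2363 bases. FOXA2 went from 17.3 to 129 CPM (log2 fold change 2.9, against 3.22 for LINC00261). LINC00511 lies 5477 bases from the zinc transporter gene SLC39A11 (0.75), LINC00665 lies 2735 bases from ZFP14 (0.63), and LINC00664 overlaps ZNF429 (0.83). In these pairs the noncoding gene had the larger fold change. Both genes fell in the pair of LINC01694 and PCBP3, 40638 bases apart, where PCBP3 had a mean of 0.732 CPM in control and 0 in the shSTN1-labelled libraries. MDGA2, 90000 bases from LINC00648, likewise went from 1.74 CPM to 0. LINC01033 lies 10362 bases from ARL15, which fell from 19.1 to 5.81 CPM (-1.71), and LINC00960 overlaps ZNF717 (-1.32).

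Several members moved apart from their neighbour. LINC02495 was read almost solely in control beside WFS1, which encodes an endoplasmic reticulum protein and rose from 65.7 to 93.6 CPM (0.51). LINC00491 was likewise restricted to control while PAM, a peptide-amidating enzyme gene 82422 bases away, rose slightly (0.29). LINC01348 rose (2.66), whereas TOMM20, a receptor for mitochondrial protein import 35116 bases away, fell from 493 to 156 CPM (-1.66). LINC02381, whose gene body overlaps SMUG1, had a log2 fold change of -2.84 with SMUG1 at 0.08 and not called, and LINC01315 was at -3.1 with TCF20 at -0.15 and not called. The coding genes nearest to LINC00896 (RTN4R, 0.22) and LINC01234 (RBM19, -0.07) were not called either. LINC00632, LINC01605, LINC02253, LINC01411, LINC00937 and LINC02814, also read almost solely in control, had no tested coding gene within 100 kb. Their nearest ones, 141568 to 528604 bases away and so outside that window, were all called lower, as were 38.5% of all genes tested. In that order these nearest genes were LDOC1 (1435 to 0 reads), ZNF703 (20257 to 653), ARRDC4 (2038 to 179), MSX2 (2298 to 435), NECAP1 (2603 to 1582) and RAB4A (5165 to 4058). The falls of NECAP1 (log2 fold change -0.68) and RAB4A (-0.31) were under 2-fold. No test was made of this count.

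At the entry rule, the members just inside were LINC00624 with 19, 33 and 15 control reads and 11, 8 and 14 in the shSTN1-labelled libraries, and LINC01252 with 26, 24 and 14 against 17, 8 and 13. Just outside were LINC00653 (33, 15 and 19 against 12, 11 and 8) and LINC00663 (18, 9 and 12 against 22, 14 and 23). In these 4 genes the groups overlapped or nearly touched. The call of LINC00624 (-0.95, edgeR adjusted p = 0.0395) was lost without control replicate 2 (-0.64, edgeR adjusted p = 0.24), without shSTN1 replicate 1 (0.0897) or 2 (0.184), by DESeq2 (0.0905), with no low-count filter (0.0616) and with the replicate number as a block (0.0701). The labels call the replicates biological without naming separate cultures, so p-values here reflect only how far these libraries spread.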

How the data were processed

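Whole-number read counts per gene were deposited by the authors without normalization, under Ensembl identifiers and symbols. Per the submitters' processing notes, cutadapt, FastQC, STAR 2.7.2b and featureCounts 2.0.1 were used with GRCh38. Neither annotation release nor strand setting is stated in the labels. Of 60668 rows, 45 second copies of pseudoautosomal genes were left out, and 58516 of the rest were found in GENCODE 29 by identifier without version, which gave coordinates, classes and exon lengths.

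Members and lists were chosen with earlier results of these data known. Counts were fitted with edgeR 4.0.16 in R 4.3.3 (filterByExpr, TMM factors, robust quasi-likelihood test, no covariates, 17451 genes, Benjamini-Hochberg threshold 0.05). CPM used TMM-scaled library sizes. SEs are of the difference of group means of log2 CPM with a prior count of 2, and not of the edgeR fold change beside them. They understate the error where a group has few reads. Intervals of fold changes came from limma-voom (limma 3.58.1). Named genes were those with at most 3 reads in a group, the 8 highest per kilobase in each group, the 8 highest and 8 lowest fold changes past the threshold without overlap and at 1 CPM or more, the 6 smallest differences at 2 CPM or more, those at the entry limit, and up to 8 of each list by adjusted p. Coding neighbours were named for some of them. IL1RL1, CDKN2B-AS1, LINC01910, LINC02693, the genes named by chromosome and the list members past the first 8 were named after their values were seen.

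Alternatives were other scalings (RLE, upper quartile), filters and tools (DESeq2 1.42.0, limma-voom), a replicate block, stricter thresholds, other entry totals and distances, and leaving out each library. The fit was tested on simulated counts of 17071 genes, of which 50 were changed at each of 1.5, 2, 4 and 8-fold. It recovered 68% at 1.5-fold and 88% at 2-fold, and 3.31% of its calls were false. Far fewer genes were changed there than the 74.1% called here, so it cannot speak for the scaling under these conditions. No replicate pair agreed within sampling noise (chi-square over its degrees of freedom 3.02 to 8.89). Figures were drawn with matplotlib 3.10.9.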

Additional observations from a re-analysis of the deposited data

How the results depend on the processing

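Member counts held within 1.5 times under the other scalings, filters, tools and left-out libraries that were run. Leaving out 1 library gave 67 to 72 members higher, 50 to 53 lower, 87 to 92 called at 2-fold or more, a median of 0.19 to 0.26, 11 to 12 genes read almost solely in control and 0 in the shSTN1-labelled libraries, and an STN1 value of -0.22 to -0.06. With 1 CPM in 3 libraries as the filter the median was 0.26. An entry total of 50 reads gave 133 members at 2-fold or more, 19 genes read almost solely in control and 1 in the shSTN1-labelled libraries, and a stricter entry total gave 6 genes read almost solely in control. The 69 members overlapping no other gene gave lower counts in part by construction. Of them 27 were higher, 28 lower, 42 at 2-fold or more and 3 read almost solely in control, with a median of 0.03. Beside 11 of all 167 members, 3 of 69 is also a lower share read almost solely in control. With 0 reads in place of 3 as the limit, 5 genes were read almost solely in control. The replicate block gave 71 higher and 54 lower (125 members called, all of them among the 127 called without it), 88 at 2-fold or more, a median of 0.18 and an STN1 value of -0.15, and same-numbered libraries showed no shared deviation (correlations -0.0123, 0.0171 and -0.0337), so pairing was not assumed. Among 58 named genes, 18 of 696 values changed sign, 0 of them past the threshold, all in genes chosen for the smallest differences. LINC01145 turned to -0.03 with upper-quartile factors, -0.02 with no filter and 0.0 by DESeq2, and ran from -0.03 to 0.06 over left-out libraries. LINC00910 turned to -0.01 with upper-quartile factors, with no filter and by limma-voom, and ran from -0.19 to 0.18 over left-out libraries. Over the same settings LINC01355 ran from -0.08 to 0.11, LINC01786 from -0.16 to 0.26 and LINC01569 from -0.3 to 0.04. The cause was not tested. Neighbour pairs in the same direction made up 73.2% to 77.0% at the distances tried. Repeat content of the members was not run. Genes with 0 to 3 reads in a group have fitted values that depend on the prior count.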

Other observations

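The direction of the members differed by chromosome, a split looked at after the values were seen. On chromosome 22, 5 of 7 members were lower and 2 higher, where 63.4% of 453 genes tested were lower and 16.6% higher. Chromosome 21 had 4 of 6 members lower and 1 higher, where 47.5% of 179 genes were lower and 28.5% higher. On chromosome 7, 7 of 11 members were higher and 2 lower, where 45.4% of 871 genes were higher and 28.5% lower. Chromosome 12 had 6 of 8 members lower and 1 higher, where 322 of 895 genes were lower and 315 higher. Chromosome 13 ran against its background, with 4 of 4 members higher (LINC00346, LINC00543, LINC01232 and LINC02340), where 26.0% of 300 genes were higher and 49.3% lower. The groups overlapped for LINC02340. Chromosome 4 also ran against its background, with 3 of 5 members higher and 1 lower, where 22.4% of 594 genes were higher and 53.5% lower. Chromosome 19 had 6 of 9 members higher and 1 lower, LINC01535, where 40.3% of 1237 genes were higher and 35.6% lower. No test was made of these counts.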
